A study of Mus musculus with 3 samples.

Results

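The chemokine genes Cxcl1, Cxcl2, Cxcl3 and Cxcl5 and the gene of their shared receptor, Cxcr2, were followed in mouse neuroblastoma, to find which cells of the tumor held the transcripts of the ligands and which held those of the receptor. The genes were chosen by name, and all 5 were present among the 31053 genes of the raw count tables. The study profiled 3 fresh tumors of the TH-MYCN model, in which the MYCN oncogene is driven by the tyrosine hydroxylase promoter and tumors arise from sympathetic precursors. The mice all carried 1 copy of the transgene, with no treatment given in the labels, and were studied at an age of 62 days (tumor 1), 79 days (tumor 2) and 63 days (tumor 3). Each tumor came from a different mouse, was cut up, dissociated with Liberase and DNase and loaded whole, and gave 1 droplet library of transcript 3′ ends, counted as unique molecular identifiers (UMIs). The 3 tumors form a single group, so that every comparison below was between cell classes, with the tumor as the replicate. The main tests did not pair the classes of a tumor, and a fit with the tumor as a block was an alternative.

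CXCL1, CXCL2, CXCL3 and CXCL5 are small secreted CXC chemokines with an ELR motif, and in the mouse they act on CXCR2, a G protein-coupled receptor of neutrophils. Cells that sense interleukin 1, tumor necrosis factor or microbial products switch on the ligand genes through NF-kB within a short time, and the messages are then cleared by decay factors. Neutrophils that carry CXCR2 follow the ligand out of the bone marrow and into tissue, and in tumors the same axis is known for drawing in polymorphonuclear myeloid-derived suppressor cells, which resemble neutrophils.

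The positions given here are those of GENCODE M21 on the mouse build GRCm38, which has the coordinates of mm10. The 4 ligand genes lie on the + strand of chromosome 5, at chr5:90759360-90761624 for Cxcl5, chr5:90786103-90789600 for Cxcl3, chr5:90891241-90893115 for Cxcl1 and chr5:90903871-90905938 for Cxcl2. From the first to the last they span 146.6 kb with 7 protein-coding genes, which also include Ppbp, Pf4 and Cxcl15. Cxcr2 lies apart, at chr1:74153989-74161246 on the + strand. The last 500 bases of the members' longest coding transcripts, from which 3′ libraries are read, shared none of their 451 50-base words with another member.

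The promoters are shown because ligand genes with different main holders, described below, begin alike. Of the 5 members, 4 were found in the RefSeq promoter table (GRCm38.p6), and Cxcl5 was not. Each line gives, from 5′ to 3′ on the + strand, the 120 bases before the gene's annotated start, or the more upstream start where RefSeq and GENCODE differ. Capitals mark the 2 runs of at least 8 bases that all 3 ligand windows share: GGGAATTTCCC, which holds the letters of an NF-kB site, and ATAAAAGG, which holds those of a TATA box.
Cxcl1, chr5:90891121-90891240: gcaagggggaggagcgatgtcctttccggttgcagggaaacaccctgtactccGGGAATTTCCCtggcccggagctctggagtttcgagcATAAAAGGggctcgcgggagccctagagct
Cxcl2, chr5:90903751-90903870: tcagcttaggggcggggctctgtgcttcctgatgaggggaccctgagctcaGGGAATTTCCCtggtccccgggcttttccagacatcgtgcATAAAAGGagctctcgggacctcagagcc
Cxcl3, chr5:90785981-90786100: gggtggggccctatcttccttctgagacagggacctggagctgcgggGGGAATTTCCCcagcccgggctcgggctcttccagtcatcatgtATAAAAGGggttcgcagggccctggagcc
Cxcr2, chr1:74153869-74153988: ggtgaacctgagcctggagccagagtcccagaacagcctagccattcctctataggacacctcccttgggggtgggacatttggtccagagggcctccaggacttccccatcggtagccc

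In Cxcl1, Cxcl2 and Cxcl3 the longer run began 67, 69 and 73 bases before the start, and the shorter one 30, 29 and 29 bases before it. The Cxcr2 window held neither. Both motifs were taken from these windows, so that their presence in the 3 ligand genes is given by the choice. They were searched on both strands and did not overlap each other. Among 32851 RefSeq promoters of 300 bases, GGGAATTTCCC was present in 0.0426% (14 promoters), ATAAAAGG in 1.76% and both in 3 promoters (0.00913%), those of Cxcl1, Cxcl2 and Cxcl3. A match is a description of the letters and not evidence of binding.

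Of 13622 barcodes, the authors kept 5650 (1914, 1221 and 2515 in tumors 1, 2 and 3), with medians of 4282.5, 1594 and 1816 UMIs per cell. Only 4 kept barcodes recurred between tumors. Clusters were named from marker genes, with 63 genes, the members and the genes of related lists, held out of clustering and naming, so that they neither formed nor named a class. The neutrophil-like class (311 cells) met 8 of 8 of its markers, among them S100a8, S100a9, Retnlg and Ly6g, and made up 12.3% of cells in tumor 1, 4.42% in tumor 2 and 0.875% in tumor 3, or 235, 54 and 22 cells. Macrophage-like cells numbered 886, cells like cancer-associated fibroblasts (CAF-like) 86, mesothelial-like cells 27, endothelial-like cells 93 and tumor-like cells 2971, while 610 cells stayed unnamed. Levels are the gene's part of all UMIs of the class in a tumor, in CPM (10000 CPM being 1% of the UMIs), with exact 95% Poisson intervals that cover counting error only, and a class entered the tests where a tumor held at least 10 of its cells. As UMIs were not scaled by transcript length, a level was compared between classes and not between genes.

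Cxcr2, the receptor, was a neutrophil-like transcript in all 3 tumors. Its level there was 1429 CPM in tumor 1 (95% interval 1342 to 1519, 1009 UMIs), 795 CPM in tumor 2 (651 to 961, 106 UMIs) and 560 CPM in tumor 3 (362 to 827, 25 UMIs), with a mean of 928 ± 449 (SD, n = 3). Against all other kept cells of the same tumor, these levels were 448-fold, 518-fold and 579-fold higher. The next class, plasmacytoid dendritic-like cells, reached 7.49 CPM in tumor 1, the highest value of any other sum, and those 7 UMIs were all in 1 cell that also held 862 UMIs of S100a8 and S100a9. In edgeR's quasi-likelihood test of each class against the unweighted mean of the others, Cxcr2 rose in neutrophil-like cells by 10.02 on the log2 scale (SE 0.49, adjusted p = 9.65e-13), a size that depends on the prior count because several class sums held no Cxcr2. Of the 4 members that passed the filter on low counts, 3 were higher in this class, beside 13.2% of the 10947 genes tested.

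A UMI of Cxcr2 was found in 87.5% of neutrophil-like cells (median depth 2472 UMIs), against 1.13% of macrophage-like cells (6348 UMIs) and 0.236% of tumor-like cells (1675 UMIs), which should lack the receptor. By tumor, the share of neutrophil-like cells was 92.3%, 77.8% and 59.1%. With every cell thinned to 500 UMIs, it was 47.9% over all neutrophil-like cells (42.2 to 53.6%), 55.7%, 25.9% and 18.2% by tumor, and 0.0337% of tumor-like cells. This interval pools the cells of all tumors, and the value of each tumor lay outside it. Like those of the other thinned shares below, it does not cover the spread between tumors. Tumor 1 was thus the highest by level and by share, and tumor 3 was the lowest, although the 22 cells of tumor 3 gave only 13 cells with a UMI. A positive neutrophil-like cell of tumor 1 rarely held many copies: the median over all its neutrophil-like cells was 4 UMIs and the largest value 12. Macrophage-like cells of tumor 1 held 10 Cxcr2 UMIs, 1 in each of 10 cells, where their content of S100a8 and S100a9 would bring 3.72 at that tumor's neutrophil-like ratio. Those of tumors 2 and 3 held none.

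**Figure D1:**
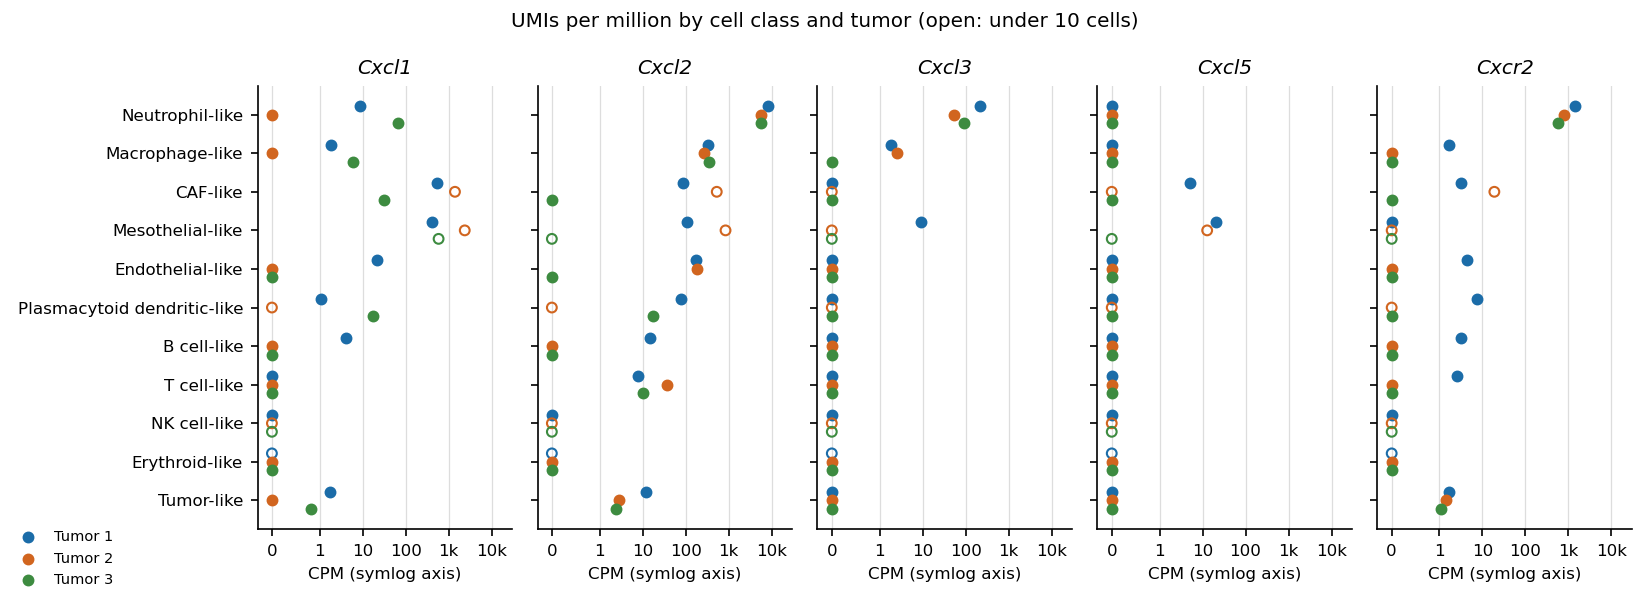
Level of each gene in CPM (horizontal symlog axis, linear below 1) by cell class (rows) and tumor (colors), with open points for sums of under 10 cells. Cxcr2, Cxcl2 and Cxcl3 are highest in neutrophil-like cells of all 3 tumors, whereas the Cxcl1 and Cxcl5 points are highest in CAF-like and mesothelial-like cells.

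Cxcl2, the ligand with the most UMIs (9801 in kept cells), was highest in the neutrophil-like class, which also held the receptor. Its level was 8298 CPM in tumor 1 (8087 to 8513), 5752 CPM in tumor 2 (5352 to 6174) and 5779 CPM in tumor 3 (5095 to 6529), with a mean of 6610 ± 1462. These values were 40.7-fold, 62.0-fold and 122-fold above the other kept cells of each tumor. The class rose by 9.18 on the log2 scale against the mean of the others (SE 0.66, adjusted p = 2.8e-10). Tumor 3 rested on few cells, since 1 of its 22 neutrophil-like cells held 110 of 258 Cxcl2 UMIs, and the remaining 21 gave 3496 CPM.

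Macrophage-like cells were the second class, at 332, 264 and 346 CPM in tumors 1, 2 and 3 (mean 314 ± 43.9), and their range did not overlap with that of neutrophil-like cells. Cxcl2 rose in them by 4.27 on the log2 scale (SE 0.71, adjusted p = 8.3e-05), the only one of 4 tested members to do so, where 14.1% of all genes were higher in this class. This contrast weighs classes with few or no Cxcl2 UMIs as much as the others, and its size depends on the prior count. Against all other kept cells of the same tumor, neutrophil-like cells included, their level was 0.351-fold, 0.684-fold and 5.84-fold in tumors 1, 2 and 3. It was thus higher in tumor 3 alone. The order then ran to endothelial-like (120 ± 104 CPM), mesothelial-like (109 CPM, tumor 1 alone), plasmacytoid dendritic-like (46.8 ± 41.3 CPM) and CAF-like cells (43.0 ± 60.8 CPM). The endothelial-like range overlapped with the mesothelial-like value, and the endothelial-like level did not pass the test (2.20 on the log2 scale, adjusted p = 0.21, or 0.049 with the tumor as a block). Single cells made up most of these levels outside the CAF-like class, with 81 of 82 endothelial-like UMIs of tumor 1, 17 of 18 of tumor 2, 51 of 58 mesothelial-like UMIs of tumor 1 and 67 of 71 plasmacytoid dendritic-like UMIs of tumor 1 each in 1 cell. In CAF-like cells of tumor 1, 6 cells held the 82 UMIs, 32 of them in 1 cell.

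Most neutrophil-like cells but few macrophage-like cells held Cxcl2. A UMI was found in 82.1%, 77.8% and 77.3% of neutrophil-like cells of tumors 1, 2 and 3, in 17.8%, 17.0% and 9.24% of macrophage-like cells, and in 0.606% of tumor-like cells over all tumors. After thinning to 500 UMIs the shares were 70.4% (65.0 to 75.4%), 7.22% (5.61 to 9.13%) and 0.168%. Within macrophage-like cells the transcript was bunched: 10 of 602 cells of tumor 1, 2 of 100 of tumor 2 and 1 of 184 of tumor 3 held 50% of the class's Cxcl2 UMIs. In neutrophil-like cells the same 50% took 32 of 235, 12 of 54 and 2 of 22 cells. The cell of tumor 3 that led its macrophage-like class held 132 of 233 UMIs, and the class was at 151 CPM without it. At the neutrophil-like ratio, the S100a8 and S100a9 content of macrophage-like cells would bring 22.7 Cxcl2 UMIs, where 2318 were counted. This ratio differed between neutrophil-like cells, and 1 cell of tumor 3 held 110 Cxcl2 UMIs and 6 of S100a8 and S100a9. RNA from such cells would be missed by the estimate, and carry-over was not tested.

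**Figure D2:**
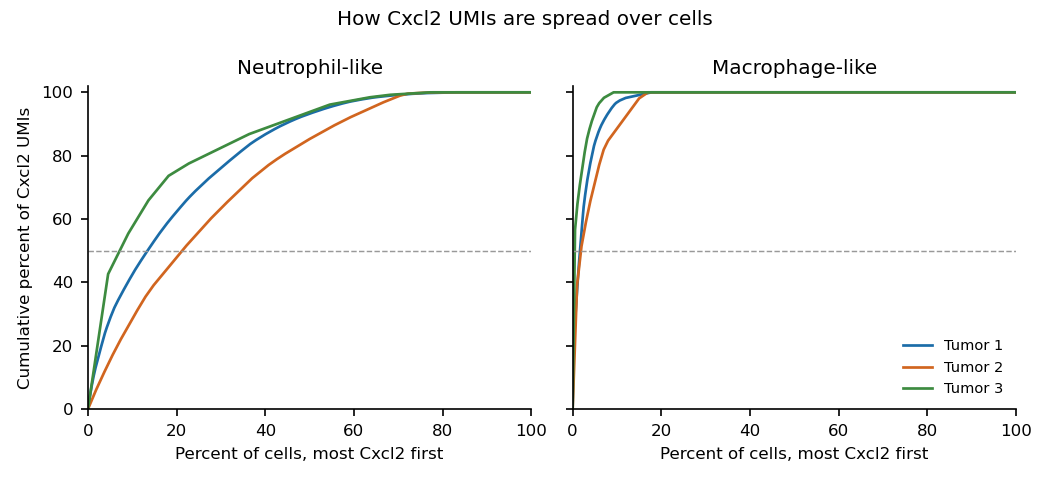
Cumulative percent of Cxcl2 UMIs (vertical axis) over cells ranked from the most Cxcl2 to the least (horizontal axis, percent of cells), for neutrophil-like cells (left) and macrophage-like cells (right), with 1 line per tumor and a dashed line at 50%. The macrophage-like lines reach 100% before 18% of cells in every tumor, whereas the neutrophil-like lines rise more slowly.

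Macrophage-like cells were split into the subsets named for Ccr2 (289 cells), Pecam1 (281 cells) and Apoe (316 cells). Ccr2 is the receptor that brings monocytes into tissue, and Apoe is a lipid carrier of resident and lipid-laden macrophages. In tumors 1, 2 and 3 Cxcl2 stood at 594, 462 and 1581 CPM in the Ccr2+-like subset (mean 879 ± 612). The Pecam1+-like subset had 33.6, 634 and 239 CPM (302 ± 305) and the Apoe+-like subset 168, 129 and 51.5 CPM (116 ± 59.3). The Ccr2+-like subset was higher than the Apoe+-like one in every tumor, but Pecam1+-like cells led in tumor 2, where 41 of their 43 UMIs were in 1 cell. Likewise, 132 of 175 Ccr2+-like UMIs of tumor 3 were in 1 cell.

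No subset passed the test for Cxcl2, the single member tested there. The log2 change was 2.35 for Ccr2+-like (SE 0.69, adjusted p = 0.27), −0.37 for Pecam1+-like (SE 0.75, adjusted p = 0.91) and −1.98 for Apoe+-like cells (SE 0.78, adjusted p = 0.21). Of 4577 genes, 0.218% were higher in the Ccr2+-like subset and 1.35% lower in the Apoe+-like one. With the tumor as a block, the Ccr2+-like call passed (2.48, adjusted p = 0.012). Of the Apoe+-like cells, 140 formed a cluster of low depth (median 1341 UMIs) whose leading genes against other macrophage-like cells included the tumor markers Phox2a and Stmn2. Tumor markers summed to 134, 1357 and 1717 CPM in that cluster, against 29.9, 335 and 449 CPM in the rest of the subset. That cluster held 1 Cxcl2 UMI, and the subset stood at 174, 154 and 67.9 CPM without it. Its 42, 31 and 67 cells of tumors 1, 2 and 3 also lower the shares of macrophage-like cells with Cxcl2 given above.

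**Figure D3:**
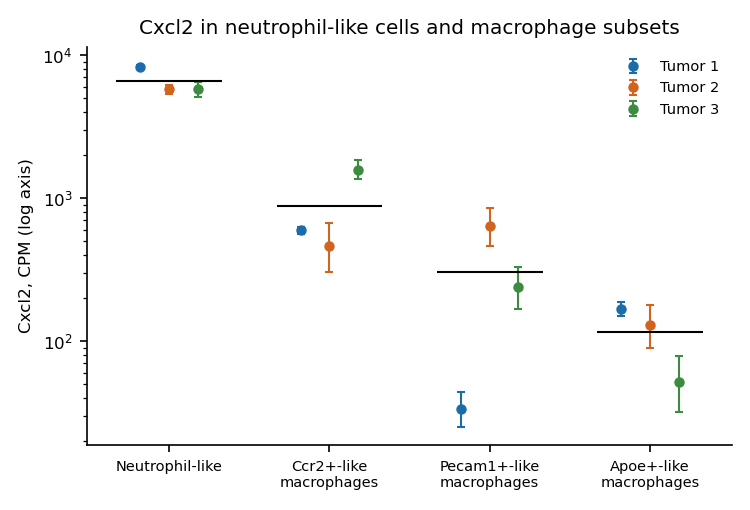
Cxcl2 in CPM (vertical log axis) in neutrophil-like cells and in the 3 macrophage subsets, with 1 point per tumor, exact 95% Poisson intervals and a black line at the mean of the tumors. The neutrophil-like points, from 5752 to 8298 CPM, lie above every subset point, the highest of which is 1581 CPM.

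Cxcl3 was scarce, with 185 UMIs in kept cells, and 167 of them were in neutrophil-like cells. The neutrophil-like level was 221 CPM in tumor 1 (188 to 258, 156 UMIs in 36 cells), 52.5 CPM in tumor 2 (21.1 to 108, 7 UMIs in 2 cells) and 89.6 CPM in tumor 3 (24.4 to 229, 4 UMIs in 1 cell), for a mean of 121 ± 88.5. The other kept cells of tumor 1 were 155-fold lower. In tumors 2 and 3 they held 1 UMI and none, and against a floor of 3 UMIs the neutrophil-like level was at least 45.6-fold and at least 154-fold higher. Cxcl3 rose in neutrophil-like cells by 8.97 on the log2 scale (SE 0.68, adjusted p = 1.8e-07), but DESeq2 did not call it (7.78, SE 4.58, adjusted p = 0.31). In mesothelial-like cells it stood at 9.38 CPM in tumor 1, with 4 of 5 UMIs in 1 cell, and did not pass (4.32, SE 1.29, adjusted p = 0.054), although it did with the tumor as a block (adjusted p = 0.02). The share of neutrophil-like cells with a UMI was 12.5%, or 5.79% at 500 UMIs per cell (3.47 to 8.99%), and none of 2971 tumor-like cells had one, which allows up to 0.101%. Tumor 1 thus held 173 of the 185 UMIs.

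Cxcl1 was found elsewhere, in stromal and mesothelial-like cells. In CAF-like cells, which make and remodel matrix, its level was 536 CPM in tumor 1 (490 to 584, 511 UMIs in 48 cells) and 32.0 CPM in tumor 3 (8.73 to 82.0, 4 UMIs in 30 cells). The 8 CAF-like cells of tumor 2 held 74 UMIs (1398 CPM). The class differed in makeup between tumors: fibroblast-like, perivascular-like and unnamed cells numbered 20, 23 and 5 in tumor 1, 2, 2 and 4 in tumor 2 and 2, 8 and 20 in tumor 3. The unnamed cells, led by Apod, Tub and Kcna1, were shallow (median 2489 UMIs) and held no Cxcl1 UMI in tumor 3, so that the levels of the class are not those of 1 kind of cell. In mesothelial-like cells, which line body cavities and met 5 of 5 of their markers and also 5 of 9 CAF markers, it was 405 CPM in tumor 1 (353 to 463, 216 UMIs in 16 cells). The 5 and 6 mesothelial-like cells of tumors 2 and 3 gave 2359 and 582 CPM. Neutrophil-like cells followed at 8.49, 0 and 67.2 CPM (25.2 ± 36.6), from 9 UMIs in all, so that no neighbours in this order were apart beyond the range of the tumors.

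Against the mean of the other classes, Cxcl1 rose by 6.87 on the log2 scale in CAF-like cells (SE 0.72, adjusted p = 1.8e-07) and by 7.31 in mesothelial-like cells (SE 0.81, adjusted p = 7.6e-07). It was the only called member in each, beside 12.8% and 8.78% of all genes. The CAF-like test rests on 2 sums, and the mesothelial-like one on a lone sum of tumor 1 that is assumed to vary like the others and was not called by DESeq2 (6.49, adjusted p = 0.088). Without tumor 1 neither test of Cxcl1 could be made. Within tumors, CAF-like cells were 25.0-fold, 20.4-fold and 4.53-fold above all other kept cells, and mesothelial-like cells 8.99-fold, 84.9-fold and 201-fold. The CAF-like fold of tumor 2 and the mesothelial-like folds of tumors 2 and 3 come from 8, 5 and 6 cells. In tumor 3, 1 mesothelial-like cell held 20 of 25 UMIs, and the level fell from 582 to 148 CPM without it.

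Few cells held these transcripts. Of 511 CAF-like UMIs of tumor 1, 1 cell held 147, and of 216 mesothelial-like UMIs, 1 cell held 111. A UMI was present in 37.2% of CAF-like cells (median depth 8488.5 UMIs), 63.0% of mesothelial-like cells (20802 UMIs) and 0.135% of tumor-like cells. With 500 UMIs per cell these shares were 8.14% (3.34 to 16.1%), 25.9% (11.1 to 46.3%) and 0.0337%. Among CAF-like cells of tumor 1, the 20 fibroblast-like cells were at 1019 CPM (929 to 1116, 470 UMIs) and the 23 perivascular-like cells at 72.3 CPM (50.1 to 101, 34 UMIs). The other tumors held 2 fibroblast-like cells each, at 1897 CPM in tumor 2 and with no UMI in tumor 3, against 1229 CPM in 2 and 65.5 CPM in 8 perivascular-like cells, so that the order was turned in tumor 3 and has no replicate check.

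Cxcl5 was nearly absent, with 17 UMIs in kept cells, and it did not pass the filter on low counts. Of these, 12 were in mesothelial-like cells, 10 of them in 1 cell of tumor 1, and 5 in CAF-like cells, 4 of them in 1 cell. Neutrophil-like and macrophage-like cells held none, which at a floor of 3 UMIs allows up to 4.25, 22.5 and 67.2 CPM in neutrophil-like cells of tumors 1, 2 and 3 and up to 0.503, 7.54 and 4.46 CPM in macrophage-like cells.

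When cell numbers were taken into account, the ligands had different main holders. Neutrophil-like cells held 70.7%, 76.0% and 51.4% of Cxcl2 UMIs in tumors 1, 2 and 3 (66.04 ± 12.96%), while being 12.3%, 4.42% and 0.875% of cells. Macrophage-like cells held 23.9%, 10.4% and 46.4% (26.9 ± 18.2%), and in tumor 3 the exact intervals of both classes met, at 46.9 to 55.8% and 42.0 to 50.9%. Both together held 94.6%, 86.4% and 97.8%. For Cxcl3 the neutrophil-like share was 90.2% of 173 UMIs in tumor 1, 87.5% of 8 in tumor 2 and 100% of 4 in tumor 3. For Cxcl1, CAF-like cells held 67.1%, 28.7% and 10.0% of UMIs and mesothelial-like cells 28.4%, 71.3% and 62.5%. Together these held 95.5%, 100% and 72.5% of Cxcl1 in 3.34%, 1.06% and 1.43% of cells. Tumor-like cells, which were 16.5%, 58.9% and 77.0% of cells, held 0.0844%, 0.396% and 1.79% of Cxcl2 UMIs and 0.131%, 0% and 7.5% of Cxcl1 UMIs, the last being 3 of 40.

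**Figure D4:**
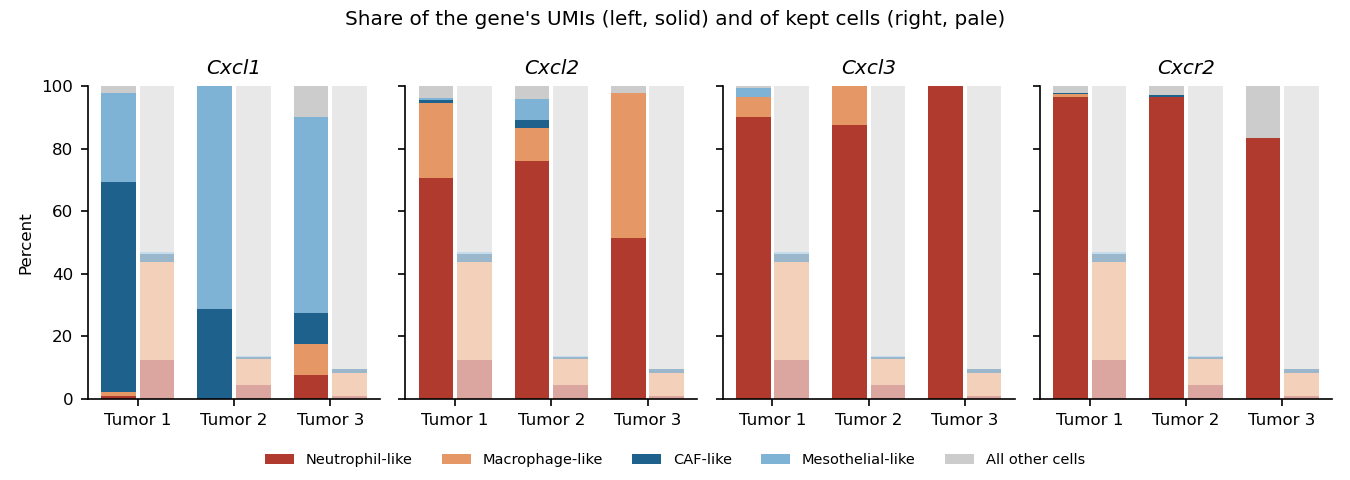
Percent of each gene's UMIs (left solid bar of a pair) and percent of kept cells (right pale bar) by class, for each tumor. Neutrophil-like and macrophage-like cells hold 86.4% or more of Cxcl2 in every tumor, whereas CAF-like and mesothelial-like cells hold 72.5% or more of Cxcl1.

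Neutrophil-like and macrophage-like sums were also compared directly, as both are myeloid. Of 6284 genes, 3.31% were higher and 2.93% lower in neutrophil-like cells, and all 3 members tested were higher. Cxcr2, at 1429, 795 and 560 CPM against 1.68, 0 and 0 CPM, rose by 10.02 on the log2 scale (SE 1.16, adjusted p = 0.0048). Cxcl2 rose by 4.77 (SE 0.61, adjusted p = 0.0052), and Cxcl3, at 221, 52.5 and 89.6 CPM against 1.84, 2.51 and 0 CPM, by 6.80 (SE 1.06, adjusted p = 0.0097). Every neutrophil-like value lay above every macrophage-like value for these genes. With 2 tumors the calls were lost where tumor 2 or tumor 3 was left out, with adjusted p of 0.072 and 0.053 for Cxcr2, 0.091 and 0.071 for Cxcl2 and 0.086 and 0.08 for Cxcl3, while the log2 changes stayed between 4.61 and 9.95. Without tumor 1 they were 10.76 for Cxcr2 (adjusted p = 6.2e-05) and 4.20 for Cxcl2 (adjusted p = 6.4e-05). Cxcl3 was not among the genes tested without tumor 1, so that its call was lost in each such fit that included it.

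At a finer clustering (resolution 2), the neutrophil-like cells fell into a cluster of 196 cells led by Entpd3, Csf1, Cass4, G0s2, Hdc and Siglecf and one of 115 cells led by Ngp, Camp, Retnlg and Ly6g, genes of granules and of neutrophil maturation. This split was looked at after the data had been seen and is described without a test. Cxcl2 was at 10469, 7173 and 7588 CPM in the first cluster and at 5896, 4408 and 3468 CPM in the second, in tumors 1, 2 and 3, so that the first was higher in each tumor. In tumor 3 this rests on 1 cell with 110 of the 190 UMIs of the first cluster, which was at 3521 CPM without it, beside 3468 CPM in the second. Cxcr2 was at 1520, 1034 and 519 CPM in the first and 1327, 569 and 612 CPM in the second, with the order turned in tumor 3, where the clusters had 13 and 9 cells. S100a8 and S100a9 were themselves among the leading genes of the second cluster, so that their higher sum there is given by the choice. It was 42061, 56647 and 5072 CPM in the first and 230864, 190213 and 81451 CPM in the second.

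Many neutrophil-like cells held both ligand and receptor. Of 311 neutrophil-like cells, 225 held UMIs of both Cxcl2 and Cxcr2, 27 of Cxcl2 alone, 47 of Cxcr2 alone and 12 of neither. As each gene was found in most cells of the class, most would hold both even if they were unrelated. A UMI of Cxcl2 was in 83.9%, 81.0% and 69.2% of cells with Cxcr2 in tumors 1, 2 and 3. Among cells without Cxcr2 it was in 61.1%, 66.7% and 88.9%. Cells with Cxcr2 were deeper over all tumors (median 2560 against 2062 UMIs). Cxcl2 stood at 8283, 6134 and 2022 CPM in the cells with Cxcr2 and at 8592, 4632 and 11635 CPM in those without, in tumors 1, 2 and 3, which gave no common order. Of the 39 neutrophil-like cells with Cxcl3, 37 also held Cxcl2. In CAF-like cells, 7 of the 8 cells with Cxcl2 also held Cxcl1. Macrophage-like cells with a UMI of Il1b, the interleukin 1 beta gene, held Cxcl2 at 424, 434 and 580 CPM, against 107, 91.3 and 97.9 CPM in those without. They were also deeper, with a median of 7732 against 3658 UMIs over all tumors, and the part of depth was not tested.

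The related genes were described by list, as counts over each comparison's own tests. In neutrophil-like cells, 7 of 7 other receptors for neutrophil attractants were higher, with a median log2 change of 7.73 beside 0.13 over all genes. Ccr1, a receptor for CC chemokines, stood at 1205, 600 and 493 CPM. Csf3r, the receptor of granulocyte colony-stimulating factor, stood at 2193, 735 and 1165 CPM, and C5ar1, the complement C5a receptor, between 246 (tumor 3) and 665 CPM (tumor 1). Cxcr1, the neighbouring receptor gene, had 6 UMIs in all kept cells, 5 of them in neutrophil-like cells.

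Among the inducers and their receptors, 9 of 12 tested were higher in neutrophil-like cells. Il1b stood at 10437, 5872 and 6630 CPM, and the inhibitors of the same signal were high too: Il1r2, the decoy receptor, at 2110, 637 and 560 CPM and Il1rn, the receptor antagonist, at 375, 150.0 and 246 CPM. Of NF-kB response and mRNA decay genes, 8 of 10 were higher. Among them were Nfkbiz (994, 450.0 and 426 CPM), which encodes a nuclear partner of NF-kB, and Nfkbia (3045, 1537 and 1523 CPM), the inhibitor that NF-kB itself induces. Zc3h12a (211, 30.0 and 22.4 CPM), which encodes a nuclease that degrades inflammatory messages, was also called. In tumor 2 it was close to the mean of the other classes (29.6 CPM). Macrophage-like cells were higher for Zc3h12a in tumors 2 and 3, at 67.9 and 50.5 CPM. Of CXCR2 signaling genes, 8 of 10 were higher, with Rgs18 at 43.9, 30.0 and 67.2 CPM, Rac2, a GTPase of chemotaxis, at 847, 480.0 and 448 CPM and Arrb2, a beta-arrestin, at 259, 97.5 and 157 CPM. Of other CXC chemokines and receptors 1 of 11 was higher, a share near the 13.2% of all genes. No gene of any list was lower in neutrophil-like cells, where 0.959% of all genes were.

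Macrophage-like cells were higher for 7 of 7 attractant receptors, 7 of 12 inducers and their receptors, 7 of 10 NF-kB response genes, 8 of 10 CXCR2 signaling genes and 4 of 11 other CXC chemokines and receptors. Of these receptors, only Ptafr and Fpr2 also stood above the mean CPM of the other classes in every tumor. Csf3r, for example, was at 75.5, 37.7 and 40.1 CPM in macrophage-like cells, far under its neutrophil-like level. Of all genes, 14.1% were higher in this class. Besides Cxcl2, they carried CXC chemokines that do not act on CXCR2, with Pf4 at 71.6, 121 and 275 CPM, Cxcl14 at 22.8, 158 and 104 CPM and Cxcl16, a membrane-bound ligand of CXCR6, at 144, 214 and 254 CPM. Tnf, tumor necrosis factor, stood at 29.9, 50.3 and 96.5 CPM. The summed count of 33 list genes higher in this class was not stable, with 10 under DESeq2 and 18 to 26 when 1 tumor was left out. The share of all genes moved as well, to 3.92% under DESeq2 and to 20%, 9.53% and 6.78% without tumors 1, 2 and 3. In the direct comparison, Cxcl14, Pf4 and Cxcl16 were 3 of 4 tested other CXC genes and all were lower in neutrophil-like cells, while Il1r2, Il1rap and Il1b, and Csf3r, Ccr1 and C5ar1, were higher. With the tumor as a block, 17 list genes in place of 7 were higher in neutrophil-like cells, while the share of all genes rose from 3.31% to 9.15%. Without tumor 2 edgeR called no gene (980 of 7210 at an unadjusted p under 0.05), and without tumor 3 it called 14 of 6228, none of them in the lists. The log2 changes were 7.53 for Il1r2, 4.91 for Il1rap, 3.65 for Il1b, 5.18 for Csf3r, 4.63 for Ccr1 and 3.73 for C5ar1.

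CAF-like cells, where Cxcl1 was high, had 3 of 12 inducers and their receptors higher and none of the attractant receptors or NF-kB response genes. Of all genes, 12.8% were higher in this class. Il1r1, the signaling receptor of interleukin 1, stood at 121 and 40.1 CPM in tumors 1 and 3 and rose by 5.89 (adjusted p = 9.69e-08). Il1r1 thus stood higher in CAF-like cells, while its decoy Il1r2 stood higher in neutrophil-like cells. Il6 was also called (6.68, adjusted p = 1.9e-06) but stood at 155 CPM in tumor 1 and had no UMI in tumor 3. Of the other CXC genes, 4 were higher, among them Ackr3 (149 and 8.01 CPM), a scavenger of CXCL12, and Cxcl12 itself (192 and 24.0 CPM). Both of these tumor 3 levels lie at or under the 24.0 CPM that a floor of 3 UMIs gives in that sum. Cxcr4 was lower, where 0.183% of all genes were. In mesothelial-like cells of tumor 1, Il1r1 (43.2 CPM) was the only inducer or receptor called, and Cxcl10 (319 CPM), Ackr3 (39.4 CPM) and Cxcl16 (124 CPM) were higher. These 4 calls test a lone sum, as for Cxcl1, and DESeq2 called 2 list genes in this class.

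**Figure D5:**
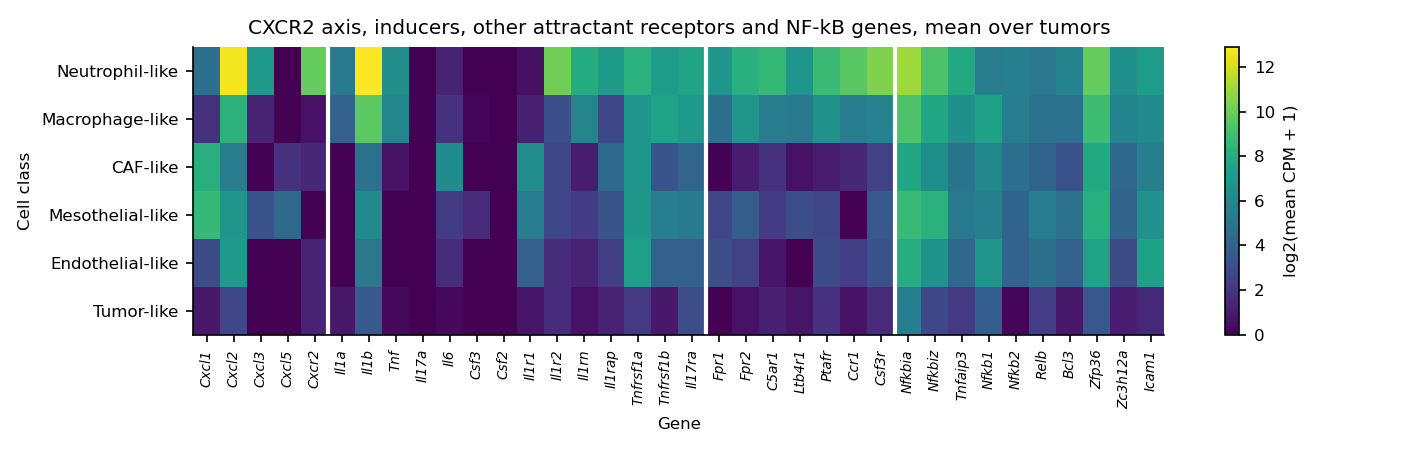
Mean over tumors of each gene's level, as log2(CPM + 1) in color, by class (rows), for the members, the inducers and their receptors, the other attractant receptors and the NF-kB response genes (blocks parted by white lines). Il1b, Il1r2 and the attractant receptors share the neutrophil-like row with Cxcl2, Cxcl3 and Cxcr2, whereas Il1r1 and Il6 are brightest in the CAF-like row with Cxcl1.

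Within macrophages, the Apoe+-like subset was higher for Cxcl14 (5.81) and Cxcl16 (2.68), 2 of 5 tested other CXC genes, and lower for Il1b (−1.90) and Il17ra (−1.93), 2 of 6 inducers and their receptors, where 2.86% of all genes were higher. The Pecam1+-like subset was higher for Il17ra (1.86) and lower for Pf4 and Cxcl16, beside 1.49% and 1.27% of all genes. In the Ccr2+-like subset no list gene passed the test. With the tumor as a block, 5 list genes were higher and 11 lower in the Apoe+-like subset, beside 8.76% and 10.5% of all genes in place of 2.86% and 1.35%.

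The genes whose levels over the 26 class sums were most like those of each member were found among 6686 genes with a mean of at least 20 CPM (6687 for Cxcl5). Cxcl2 went with Cd14 (Pearson's r 0.942), Tlr2 (0.941) and Il1b (0.935), and Cxcr2 with Retnlg (0.986), Wfdc21 (0.985) and Mrgpra2b (0.980). Cxcl3 went with Dhrs9 (0.961), Il1f9 (0.946) and Tarm1 (0.943). Cxcl1 went with C1s1 (0.855), Lox (0.845) and C1ra (0.844), and Cxcl5, at a mean of 1.27 CPM, with Rspo1 (0.906), Dmkn (0.902) and C1ra (0.898). The sums share tumors and differ in depth, so these values only describe them. Retnlg and Wfdc21 were also among the markers that named the neutrophil-like class. The lists of Cxcl2, Cxcl3 and Cxcr2 had no gene in common, while C1ra was in those of both Cxcl1 and Cxcl5. With only 3 genes per list, a lack of overlap does not show that members differ.

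The other chemokine genes of the chromosome 5 cluster were described as well. Ppbp, a CXCR2 ligand of platelets, had 75 UMIs in kept cells, 59 in Ccr2+-like cells of tumor 1 and 7 in those of tumor 3. Pf4, which does not act on CXCR2, had 691 UMIs and was higher in macrophage-like cells, as given above. Cxcl15 had 1 UMI. Cxcl1 and Cxcl2, whose starts lie 12630 bases apart, thus had their highest levels in different classes.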

How the data were processed

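Raw counts of UMIs per gene and barcode were deposited for each tumor, made by the authors with Cell Ranger 3.1.0 on the mouse build mm10 according to their processing notes. The authors also deposited normalized values, which are corrected counts with 1 added and the natural log taken, after removal of ambient RNA, of doublets and of barcodes outside limits. These values served here to define the kept cells and for an alternative, and no further doublets were removed. In tumor 1 the authors' corrected totals per cell run from 1968 to 4211 (1st to 99th percentile) where the raw ones run from 527 to 38745, so they also compress depth. Cxcl5 is in none of these files, and Cxcl3 only in that of tumor 1.

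Members and lists were chosen with earlier results of these data known. Raw counts were clustered with Seurat 5.3.0 in R 4.3.3 (2000 variable genes without the 63 held-out genes, of which 41 would otherwise have been included, canonical correlation on 30 dimensions, 20 neighbors, resolution 1). A cluster was named where at least 3 of a type's markers had a fold of at least 2 in at least 10% of its cells, and 50% of its cells held 2 of them. A cluster that met no type's list could be named macrophage-like through 3 markers of a macrophage subset. The low-depth Apoe+-like cluster of 140 cells was named in this way. Sums per tumor and class of at least 10 cells were compared with edgeR 4.0.16 (filter on low counts, TMM factors, quasi-likelihood test), with Benjamini-Hochberg adjustment over every gene tested in a comparison and a threshold of 0.05. Intervals of shares are exact binomial at 95%, and a count of 0 allows up to 3 counts. These intervals treat cells or UMIs as independent and do not cover the spread between tumors. The genes named besides the members are, per list, comparison and direction, up to 3 called genes that changed alike in every tumor, taken by size of fold change, and the 3 most like each member by Pearson's r of log2(CPM + 2). The classes of 1 tumor share an animal, which pairs them: the neutrophil-like and macrophage-like sums' deviations over 6284 genes correlated at 0.660, 0.311 and 0.367 within tumors and at −0.546 to 0.273 between them. The tests were tried on simulated counts first. Alternatives were DESeq2 1.42.0, limma 3.58.1 on the corrected values, other factors, filters, clusterings, cell minimums and thinning depths, the tumor as a block, and leaving out each tumor. Stained sections and human samples are not analysed here.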

Additional observations from a re-analysis of the deposited data

Results flagged for a closer look

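Barcodes that the authors left out (7972 of 13622) are in no comparison above, and all 5 genes had UMIs in them. Cxcl1 stands out, since 1647 of its 2706 UMIs (60.9%) were in left-out barcodes. In tumor 1 it had 1491 UMIs in 41 left-out barcodes, which is 318 CPM of all left-out barcodes of that tumor against 60.3 CPM of kept cells. Of these 41 barcodes, 30 held UMIs of at least 2 CAF markers and carried 1480 of the UMIs. Their median depth was 11501 UMIs and their median mitochondrial share 4.62%, against 27.9% for all left-out barcodes of tumor 1, and 17 of them were over 20%. In addition, 15 barcodes with 1034 of the UMIs held at least 2 neutrophil markers, so that types overlapped in them. What set these barcodes apart was not tested, and the shares of Cxcl1 by class hold for kept cells alone. The left-out barcodes held 649 UMIs of Cxcl2 (6.21% of all), 5 of Cxcl3 (2.63%), 17 of Cxcl5 (50% of 34) and 65 of Cxcr2 (5.19%).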

How the results depend on the processing

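Of 356 values recomputed under an alternative, 291 kept their direction and side of the threshold or moved by less than the spread, 46 moved, 9 gained and 9 lost a call, and 1 changed sign. Cxcl3 in neutrophil-like cells was not called by DESeq2 (7.78, adjusted p = 0.31) or on corrected values (2.41, 0.12), where the gene is not listed for tumors 2 and 3 and entered as 0, and Cxcl1 in mesothelial-like cells not by DESeq2 (6.49, 0.088). Neutrophil-like against macrophage-like cells ranged over left-out tumors from 9.91 to 10.76 for Cxcr2, 4.20 to 4.92 for Cxcl2 and 6.55 to 7.15 for Cxcl3, with calls lost without tumor 2 or 3. The Cxcl3 range covers only the fits with tumor 1, as the gene was not tested without it. Cxcl2 in Ccr2+-like cells passed with DESeq2 (2.34, 0.027) and the replicate block (2.48, 0.012), in Apoe+-like cells with DESeq2 (−1.96, 0.048) and without tumor 1 (−2.80, 0.029, range −2.80 to −1.25), and in Pecam1+-like cells it ranged from −1.61 to 0.28. The block also passed Cxcl3 in mesothelial-like and Cxcl2 in endothelial-like cells and changed no other call of a member. The level of Cxcl2 in macrophage-like cells was 424 CPM on corrected values and 380.2 without the cells with the most UMIs, and Cxcl1 in CAF-like cells 877 at resolution 0.5, where mesothelial-like cells joined them, and 32.0 to 536 over left-out tumors. The CAF-like share of Cxcl1 was then 89.3%, and the mesothelial-like share 11.4% without the cells with the most UMIs. Shares of cells without thinning, and on corrected values, were 87.5% and 86.5% (Cxcr2), 81.0% and 80.7% (Cxcl2, neutrophil-like), 15.9% and 11.2% (Cxcl2, macrophage-like), 12.5% and 11.6% (Cxcl3, 8.39% at 1000 UMIs), 37.2% and 29.1% (Cxcl1, CAF-like) and 63.0% and 51.9% (Cxcl1, mesothelial-like). List genes higher in macrophage-like cells (33) were 10 with DESeq2, 19 with sums of 5 cells, 14 on corrected values, 18 with RLE factors, 21 with the lists among the variable genes, 21 without the cells with the most UMIs and 18 to 26 over left-out tumors. In CAF-like cells (7) they were 2 with DESeq2, 4 on corrected values and 1 to 8 over left-out tumors, and in mesothelial-like cells (4) 2, 2 and, with sums of 5 cells, 8. In neutrophil-like against macrophage-like cells, 7 higher were 11 with DESeq2, 11 without a filter, 17 with the block and 0 to 10 over left-out tumors, and 3 lower were 0 to 6. In Apoe+-like cells, 2 higher were 4 without a filter, 5 with the block and 1 to 3 over left-out tumors, and 2 lower were 5 with DESeq2, 11 with the block and 0 to 3. The cause was not tested in any of these.

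The added alternatives, chosen after seeing the data, were sums of 5 cells and Apoe+-like cells without their low-depth cluster (Cxcl2 −1.78, adjusted p = 0.23). Cxcl3 and Cxcl5 rest on 185 and 17 UMIs, and the neutrophil-like cells of tumor 3 and the mesothelial-like class on 22 and 27 cells.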

Other observations

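A cluster of 127 cells that stayed unnamed, led by Ccl4, Ccl3, Ifitm1, Furin and Hdc, held 124 Cxcl2 UMIs in 17 cells (471 CPM over all tumors). Of these, 120 were in 111 cells of tumor 1 (504 CPM), 4 in 12 cells of tumor 2 (215 CPM) and none in 4 cells of tumor 3, beside 332, 264 and 346 CPM in macrophage-like cells, so that the cluster was higher in tumor 1 alone. The same cells held 8 UMIs of Cxcr2 (30.4 CPM). The cluster was looked at after the data had been seen. A second unnamed cluster of 156 cells with immunoglobulin genes (Jchain, Igkc) held 1 UMI of Cxcl2 and 1 of Cxcr2.

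Ackr1, a receptor that binds CXCR2 ligands without signaling, had 15 UMIs in kept cells, 5 of them in CAF-like, 3 in erythroid-like and 1 in endothelial-like cells.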
